A study of Sus scrofa with 80 samples.

Results

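The infant gonads of Göttingen minipigs were compared on 4 arrays, 2 of testis and 2 of ovary, out of 80 arrays of 10 tissues and sampling sites in the series. The testes came from a male of 1 week and a male of 4 weeks, and the ovaries from a female of 1 week and a female of 4 weeks. The 4 arrays are those whose labels give these tissues at these ages. All animals were naive Göttingen minipigs, were supplied by the same breeder, and each gonad sample is a piece of whole tissue from a single animal, hybridised once to a custom one-color Agilent array for the pig. The ages serve as the replicates of a gonad, so that any change from 1 to 4 weeks is part of the error, and no age has a replicate of its own. Testis and ovary also differ in sex, which cannot be told apart from the organ in these arrays. The reference outside the gonads was therefore the 28 arrays of the same ages, 14 of each sex, from bone marrow, spleen, liver, kidney and 3 brain regions.

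The gonads of both sexes arise from the same embryonic primordium. Supporting cells become Sertoli cells in the testis, which enclose the germ cells in cords and secrete anti-Müllerian hormone, or granulosa cells in the ovary, which surround the oocytes in follicles. Steroid cells become Leydig cells, which make androgens in the fetal and newborn boar testis, while the theca cells of the ovary appear with growing follicles. The germ cells of the newborn testis are gonocytes and spermatogonia, and meiosis starts only after birth, whereas those of the ovary are oocytes that have entered meiosis and build up the stores of the egg. In whole tissue, fewer cells of a type and less RNA per cell cannot be told apart, and this holds for every value below.

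Values are log2 intensities after quantile normalisation, and the log2 difference is the mean of the testes minus the mean of the ovaries, so that positive values mean higher in testis. A gene was called when its limma test, adjusted over all 23722 genes by Benjamini-Hochberg, gave an adjusted p under 0.05. The level below which 95% of the negative control spots fell lay between 2.56 and 2.72 in the 4 arrays, and between 64.4% and 72.9% of the genes were well above the background of their array by the scanner software. Where a gene was not well above background on both arrays of the dimmer gonad, only a lower bound of the fold is given. The bound sets the mean of the brighter gonad against the higher of the gene's own value and the lowest value well above background on each array of the dimmer gonad. Bounds hold for the main processing only and are no minimum over other settings. Over the alternatives given at the end, the smallest log2 difference was 6.47 for CYP17A1 and 9.19 for LOC100623656. It was -6.38 for PADI6 and -2.07 for MSLN. The correlation across genes was 0.974 between the testes, 0.986 between the ovaries and between 0.931 and 0.956 for a testis with an ovary. Genes are not independent replicates, and these values describe the arrays.

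Testis and ovary differed in 992 genes. Of the 23722 genes, 535 were higher in testis, which is 2.26% of all genes, and 457 were higher in ovary, which is 1.93%. The reference table placed 620 of the called genes on autosomes and 28 on a sex chromosome, and 344 were not placed by it. The median log2 difference over all genes was 0.02. The balance of the directions moved with the processing. Scaling to the median in place of quantiles gave 819 genes higher in testis and 486 higher in ovary, the scanner's processed signal scaled to the 75th percentile, which changes the background correction as well, gave 588 and 821, and the authors' own normalised values gave 146 and 70. The number of calls rested on single arrays: 14 and 2 genes were called without the 1-week ovary, 51 and 42 without the 4-week ovary, 346 and 220 without the 4-week testis and 1106 and 932 without the 1-week testis. An exact permutation test of 2 against 2 arrays cannot give a p below 0.333, so that all tests rest on the spread that limma pools over genes.

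**Figure D1:**
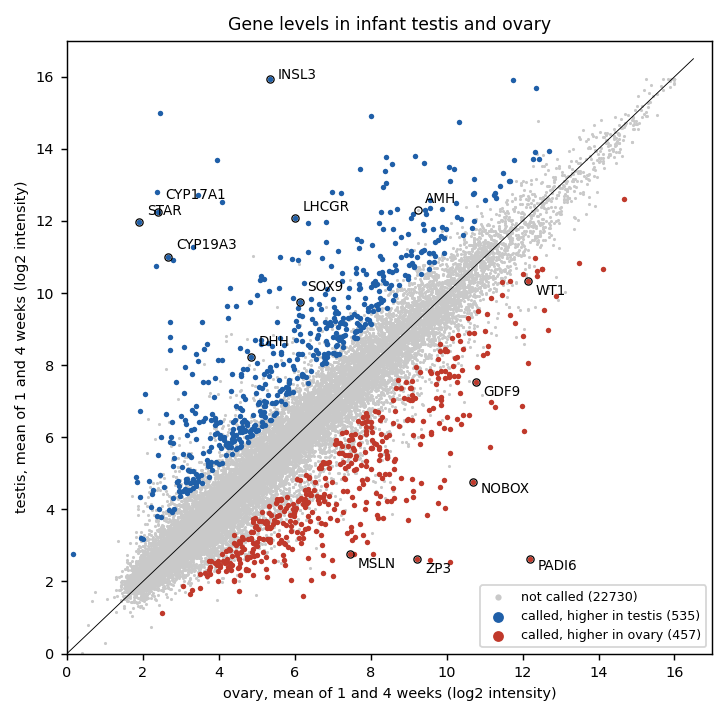
Each point is a gene, with the mean log2 intensity of the 2 infant ovaries on the x axis and of the 2 infant testes on the y axis; the line marks equal levels. Blue points are the 535 genes called higher in testis, red points the 457 called higher in ovary, and circles mark the labelled genes. Steroid genes such as STAR and CYP17A1 lie far above the line and oocyte genes such as PADI6 and ZP3 far below it, while AMH is labelled although it was not called.

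The genes of steroid hormone synthesis formed the clearest block on the testis side. Of the 30 members of the list found on the array, 16 were higher in testis and none was higher in ovary, with a median log2 difference of 2.67. Of the 15 members found of the Leydig cell list, 11 were higher in testis and CYP2A19 was higher in ovary, with a median of 3.54. The lists share genes and are not independent counts, and the background share of calls toward testis is the 2.26% given above.

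The entry of cholesterol into the pathway already differed. STAR, the protein that carries cholesterol into the mitochondrion, stood at 11.98 and 11.96 in the testes of 1 and 4 weeks and at 2.04 and 1.76 in the ovaries, where it was not well above background. In the main processing the testes were at least 572-fold higher (limma adjusted p = 0.000887). The log2 difference of STAR ranged from 6.24 to 10.6 over the alternatives. CYP11A1, which cleaves the side chain of cholesterol, has 2 entries on the array. The entry well above background in both gonads read 12.44 and 12.64 in the testes and 3.68 and 4.47 in the ovaries, a log2 difference of 8.47 ± 0.32 (SE, n = 2 against 2; limma adjusted p = 0.00284). The other entry, of which all probes are marked as cross-hybridising in the array design, showed at least a 610-fold difference (adjusted p = 0.00284). The electron carriers of this enzyme were present in both gonads at well measured levels. FDX1, the ferredoxin, read 14.80 and 14.68 in testis against 10.48 and 10.16 in ovary, a 21.4-fold difference. FDXR, its reductase, read 13.54 and 13.34 against 10.04 and 10.36, with a log2 difference of 3.25 ± 0.22. SCARB1, the receptor that takes up cholesterol esters from lipoproteins, was also higher in testis by 3.35 ± 0.25. No value of a testis overlapped with the ovaries for these 5 genes, but 29.4% of all genes also had both testes above both ovaries.

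CYP17A1, the enzyme that turns progestins into androgens, was bright in the testes and not well above background in the ovaries. Its RefSeq entry read 12.09 and 12.41 in testis and 2.09 and 2.71 in ovary, at least a 693-fold difference (adjusted p = 0.00186). All probes of this entry are marked as cross-hybridising. The entry of the same symbol without such probes stayed between 4.42 and 4.92 on all 4 arrays and did not pass the test (log2 difference 0.26, adjusted p = 0.538), so that the probes of this gene disagree. The partners of this enzyme were higher in testis as well. CYB5A, the cytochrome b5 that raises its lyase activity, read 15.90 and 15.91 in testis and 11.72 and 11.81 in ovary. The array was saturated for CYB5A in 1 of the testes, so that its log2 difference of 4.14 ± 0.18 may be too small. POR, which passes electrons to the microsomal P450 enzymes, differed by 2.43 ± 0.31 (adjusted p = 0.0294).

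HSD17B3, the enzyme that makes testosterone from androstenedione in the testis, read 9.42 and 9.00 in testis and 3.33 and 3.77 in ovary, a log2 difference of 5.66 ± 0.27 (adjusted p = 0.00376). A second entry of the gene was not well above background in the ovaries and gave at least a 48.7-fold difference. SRD5A1, a steroid 5-alpha-reductase, was just called, with 5.46 and 6.67 in testis and 3.54 and 2.77 in ovary, where it was not well above background, at least a 7.11-fold difference (adjusted p = 0.0499). SRD5A2 lay between 2.95 and 3.56 and was not well above background on any array. HSD17B4, a peroxisomal enzyme of the same family, was higher in testis by 3.72 ± 0.20. HSD17B1, the estrogenic enzyme of granulosa cells, read 3.42 and 3.52 in testis and 4.20 and 4.19 in ovary and did not pass the test (adjusted p = 0.106).

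The pig has several copies of the aromatase gene, which makes estrogens from androgens and is known to be active in the boar testis. The entry CYP19A3 read 10.64 and 11.38 in testis and 2.53 and 2.82 in ovary, and CYP19A2 read 8.72 and 9.68 against 1.77 and 3.67, where 1 of the ovaries was not well above background. Both were called, with log2 differences of 8.34 ± 0.31 and 6.48 ± 0.70. The ovary values of CYP19A3 and the 1-week ovary value of CYP19A2 lay near or below the negative control level, 2.56 at 1 week and 2.67 at 4 weeks. The sizes therefore depend on the background, and ranged over the alternatives from 5.11 to 8.71 for CYP19A3 and from 3.45 to 7.43 for CYP19A2. The entry CYP19A1 stayed between 5.06 and 5.54 on all 4 arrays and did not pass the test (log2 difference 0.32, adjusted p = 0.42). The copies are nearly alike in sequence and all probes of CYP19A2 and CYP19A3 are marked as cross-hybridising in the array design, so that the signal cannot be given to a single copy.

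The Leydig cell hormone and its regulators followed the same direction. INSL3, the insulin-like peptide that acts on the descent of the testis, read 15.98 and 15.91 in testis, where it was saturated on both arrays, and 4.36 and 6.32 in ovary. In the main processing the testes were therefore at least 1560-fold higher (limma adjusted p = 0.00719). The log2 difference of INSL3 ranged from 9.35 to 11.59 over the 17 alternatives, and its call was lost with the authors' own normalised values. LHCGR, the receptor for luteinizing hormone, read 12.09 and 12.08 against 5.79 and 6.23, a 67.3-fold difference (adjusted p = 0.00284). NR5A1, the nuclear receptor SF-1 that switches on steroid genes, read 7.75 and 7.60 against 4.94 and 4.94, a log2 difference of 2.74 ± 0.19. Both ovaries lay below both testes in each of these genes, as in 29.4% of all genes.

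Enzymes of the corticoid steps and of conjugation were also called. HSD11B2, which inactivates cortisol, read 13.63 and 13.15 in testis and 8.13 and 8.64 in ovary, a 32.1-fold difference (adjusted p = 0.00649). HSD11B1, which acts in the opposite direction, read 8.54 and 8.98 against 9.37 and 9.65 and did not pass the test (adjusted p = 0.166). CYP21A2, the 21-hydroxylase known from the adrenal cortex, read 7.43 and 6.81 in testis and 3.38 and 4.36 in ovary (adjusted p = 0.0289), while its second entry stayed between 3.91 and 4.42. SULT2A1, which adds sulfate to steroids, was at least 9.20-fold higher in testis. The member that went the other way was CYP2A19, a pig P450 enzyme that metabolises skatole, with 4.49 and 3.87 in testis and 8.11 and 8.27 in ovary (log2 difference -4.01 ± 0.27, adjusted p = 0.00824). TSPO, a cholesterol-binding protein of the outer mitochondrial membrane, read 5.26 and 4.69 in testis and 6.13 and 6.68 in ovary without passing the test (adjusted p = 0.0789).

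The synthesis of cholesterol itself showed the same direction with smaller differences. Of 19 members found, 5 were higher in testis, against 2.26% of all genes, and none in ovary. The median log2 difference was 1.46. The count was 1 with an offset of 50, without background correction, with age as a block and with the authors' own normalised values. In the fit over all infant arrays it was 14. MSMO1, a sterol demethylation enzyme, differed by 3.39 ± 0.21 and IDI1, an isopentenyl isomerase that the reference table did not place, by 3.14 ± 0.45. HMGCS1, which makes the precursor of mevalonate, differed by 3.09 ± 0.41. Of the 17 alternatives, MSMO1 kept its call under 15, and IDI1 and HMGCS1 under 11 each.

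**Figure D2:**
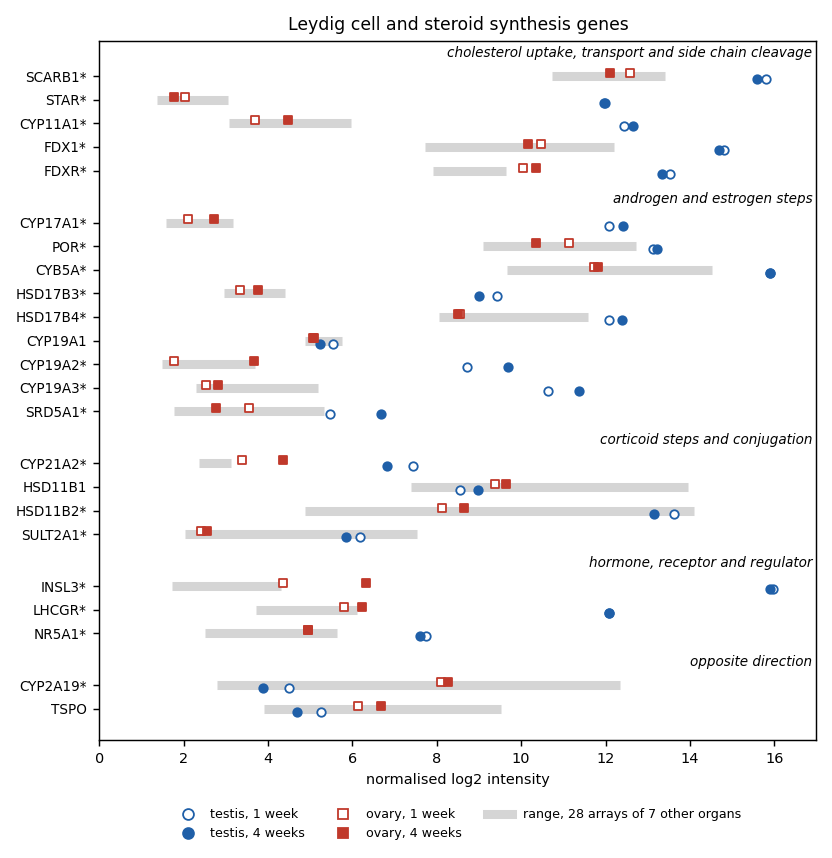
Normalised log2 intensity (x axis) of Leydig cell and steroid genes in the 2 testes (blue circles) and 2 ovaries (red squares), open at 1 week and filled at 4 weeks; grey bars span the 28 arrays of 7 other organs at the same ages, and a star marks a called gene. STAR, CYP17A1, HSD17B3, LHCGR and INSL3 are above the grey bars in both testes, whereas the ovaries lie within or close to the bars for these genes, apart from INSL3 in the 4-week ovary (6.32).

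The count of steroid genes fell to 3 without the 1-week ovary, to 9 without the 4-week ovary, to 10 with an offset of 50 in the background correction and to 8 without the cross-hybridising probes, which leave 22 of the 30 members. STAR, LHCGR and the CYP11A1 entry without cross-hybridising probes were called under all 17 alternatives. The called entry of CYP17A1 kept its call under 16 alternatives and has no value without cross-hybridising probes, where the uncalled entry is the one left. All probes of the entries given for FDX1, HSD17B3, HSD17B4, POR and NR5A1 are marked as cross-hybridising too, and for FDX1, HSD17B3 and HSD17B4 a second entry without such probes was also called.

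The supporting cells showed fewer calls. Of the 15 members found of the Sertoli cell list, 3 were higher in testis, against 2.26% of all genes, and none in ovary. The median log2 difference was 0.14. The count toward testis was 2 with an offset of 50 and with the authors' own normalised values, and 7 in the fit over all infant arrays. SOX9, the transcription factor that directs Sertoli cell fate, read 9.62 and 9.88 in testis and 6.32 and 5.94 in ovary, a 12.3-fold difference (adjusted p = 0.0079). DHH, the hedgehog ligand by which Sertoli cells act on Leydig cells, read 8.14 and 8.34 against 4.78 and 4.92, a 10.5-fold difference (adjusted p = 0.00664). DMRT1, a regulator of male fate in Sertoli and germ cells, read 9.25 and 10.42 against 6.68 and 7.35 (adjusted p = 0.0481). Its call was lost under 7 of 17 alternatives, with log2 differences between 2.24 and 3.41.

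AMH, the hormone that removes the female ducts in the male fetus, read 13.58 in the 1-week testis and 11.02 in the 4-week testis against 9.21 and 9.27 in the ovaries. Both testes were above both ovaries, but the gap between the testes left AMH uncalled (log2 difference 3.06 ± 0.83, adjusted p = 0.118). PTGDS, the prostaglandin D synthase of Sertoli cells, lay in the other direction with 7.98 and 10.03 in testis and 12.02 and 12.06 in ovary, also without passing the test (adjusted p = 0.0832). The reference table did not place PTGDS. FGF9, a growth factor of the early testis, overlapped between the gonads, with all values between 5.98 and 6.50. CLDN11, the claudin of the Sertoli cell barrier, was not well above background on any of the 4 arrays.

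Genes of the supporting cells of both sexes were called in both directions. Of 12 members, INHBB, FSHR and NR5A1, given above with the Leydig cells, were higher in testis and WT1 was higher in ovary. Over all genes, 2.26% were called toward testis and 1.93% toward ovary. INHBB, the beta B subunit of inhibins and activins, read 9.47 and 9.27 in testis and 6.45 and 5.95 in ovary, a 9.02-fold difference (adjusted p = 0.0126), and its second entry gave a log2 difference of 0.91 without passing the test. FSHR, the receptor for follicle stimulating hormone, read 6.31 and 6.55 against 3.74 and 4.33 (adjusted p = 0.0253). INHA, the alpha subunit, lay higher in the testes with 9.03 and 7.64 against 5.94 and 5.95 but did not pass the test (adjusted p = 0.068). WT1, a transcription factor of the gonadal epithelium and supporting cells, read 10.22 and 10.47 in testis and 11.98 and 12.29 in ovary (log2 difference -1.79 ± 0.22, adjusted p = 0.0279). WT1 kept its call under 8 of 17 alternatives, with log2 differences between -1.94 and -1.21. GATA4, AMHR2, CBX2 and LHX9 did not pass the test, with log2 differences between -0.11 and 0.65.

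The granulosa cell list pointed to the ovary. Of 17 members found, 4 were higher in ovary, against 1.93% of all genes, and none in testis. The median log2 difference was -0.90. The count toward ovary was 0 with an offset of 50 and 2 with age as a block. It was 1 without background correction and with the authors' own normalised values, and 10 in the fit over all infant arrays. FST, the activin-binding follistatin, read 4.60 and 4.11 in testis and 7.78 and 7.25 in ovary, an 8.97-fold difference (adjusted p = 0.0168). IRX5, a homeobox factor of the ovary, was at least 9.28-fold higher in ovary, with 7.02 and 6.57 there (adjusted p = 0.0126). RUNX1, a factor of fetal granulosa cells, read 3.92 and 3.51 in testis and 5.48 and 5.45 in ovary, and kept its call under 9 of 17 alternatives. FOXL2, the factor that maintains granulosa cell fate, was called with 1.88 and 1.85 in testis and 3.00 and 3.12 in ovary, but it was not well above background on any of the 4 arrays and its log2 difference ranged from -1.62 to -0.06 over the alternatives. The defining marker of granulosa cells was thus not measured at a usable level.

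WNT4, a signal of ovarian development, read 8.02 and 8.22 in the ovaries, 7.04 in the 1-week testis and 2.89 in the 4-week testis. IRX3 followed with 6.79 and 7.35 in ovary, 5.54 in the 1-week testis and 2.88 in the 4-week testis, and EMX2, a homeobox factor of the urogenital ridge, with 8.92 and 9.33, 7.07 and 4.90. The 1-week testis was between the ovaries and the 4-week testis in all of them, and none passed the test (adjusted p = 0.246, 0.148 and 0.0888). Markers of surface epithelium and mesothelium moved with these genes and are given below.

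Without the 1-week ovary or without the 4-week ovary, none of the Sertoli or granulosa genes was called by limma. At an unadjusted p under 0.05, 4 Sertoli genes lay toward testis in each case, and 6 and 5 granulosa genes toward ovary. SOX9, DHH, DMRT1, IRX5, FST, RUNX1 and FOXL2 had the same direction under all 17 alternatives.

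**Figure D3:**
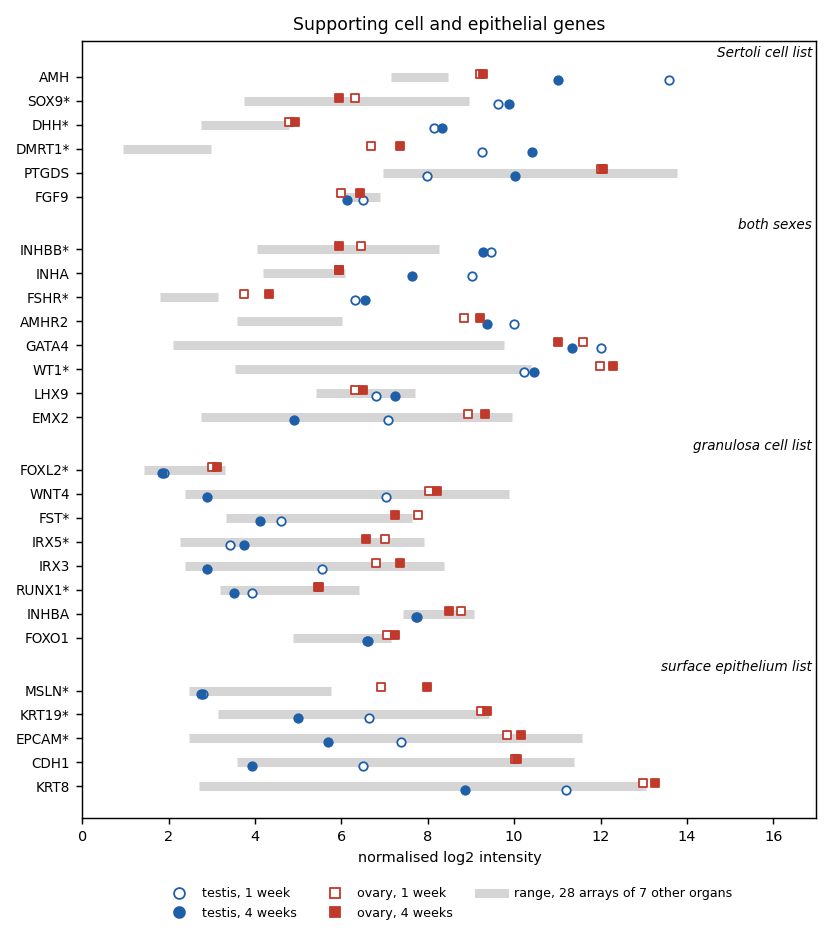
Normalised log2 intensity (x axis) of supporting cell and surface epithelium genes, with symbols as for the steroid genes: circles for testis, squares for ovary, open at 1 week, filled at 4 weeks, grey bars for the range of 28 arrays of 7 other organs, star for a called gene. SOX9, DHH and INHBB separate the testes from the ovaries, AMH differs between the 2 testes (13.58 and 11.02), and WNT4, EMX2 and the epithelial genes CDH1 and KRT8 are higher in the 1-week than in the 4-week testis.

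Oocyte genes formed the block on the ovary side. Of 34 members found, 15 were higher in ovary and none in testis, with a median log2 difference of -2.27, against a background of 1.93% of genes called toward ovary. PADI6, an arginine deiminase stored in the egg, read 12.99 and 11.38 in the ovaries of 1 and 4 weeks and 2.84 and 2.38 in the testes, where it was not well above background. The ovaries were at least 637-fold higher (adjusted p = 0.00664). KPNA7, an importin of oocytes, was at least 105-fold higher with 10.52 and 8.62 in ovary, and OOEP, a partner of PADI6 in the maternal complex below the egg membrane, at least 33.2-fold with 8.82 and 7.32.

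The zona pellucida and growth factor genes were higher in the ovaries as well. ZP3, a protein of the zona, read 10.17 and 8.29 in ovary against 2.60 and 2.66 in testis, at least an 82.8-fold difference (adjusted p = 0.0178). ZP2 was not well above background, and ZP4 read 4.78 and 4.72 in testis and 4.22 and 4.50 in ovary, without overlap and without passing the test (adjusted p = 0.325). GDF9, which oocytes secrete to act on granulosa cells, read 11.45 and 10.08 in ovary and 7.59 and 7.49 in testis (log2 difference -3.23 ± 0.47, adjusted p = 0.0388). Its testis level was within the range of the other organs, 7.25 to 8.76.

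Transcription factors of the oocyte were among the called genes. NOBOX read 11.73 and 9.67 in ovary and 4.64 and 4.88 in testis, a 61.5-fold difference (adjusted p = 0.0254), while a second entry under this symbol stayed between 1.69 and 2.37 and was not well above background. FIGLA, which switches on the zona genes, read 9.39 and 8.19 against 4.90 and 4.83, a 15.2-fold difference (adjusted p = 0.0234). TCL1B was at least 60.7-fold and MOS, the kinase that holds the egg in meiosis, at least 14.9-fold higher in ovary. OTX2, LHX8 and the stored protein NPM2 did not pass the test; OTX2 read 8.99 and 6.73 in ovary and 4.00 and 4.47 in testis (adjusted p = 0.0736). TCL1A, next in kind to TCL1B, was bright on all arrays with values between 12.41 and 13.33.

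The 1-week ovary was higher than the 4-week ovary in most oocyte genes. A fall of at least 2-fold from 1 to 4 weeks was seen in 15 of the 34 members, against 2.63% of all genes, and none rose by 2-fold. Each age is a single animal and this change has no replicate check. At 2 months PADI6 read 13.27 and GDF9 12.10 in the ovary, close to the 1-week values, and at 4 months 10.05 and 9.71.

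Calls and sizes of the oocyte genes depended on the processing. The median log2 difference was -0.88 with an offset of 50 and -1.06 without background correction, and that of MOS ranged from -5.25 to -1.59 over the alternatives. With an offset of 50 none of the members was called by limma, while 21 passed an unadjusted p under 0.05 toward the ovary, with the authors' own normalised values 1 was called, with no background correction 1, with age as a block 9, and without the 1-week ovary 2.

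Of 29 germ cell genes that both sexes share, PRAME was the only one called, and the median log2 difference was 0.08. Over all genes 2.26% were called toward testis, so that a single call is no result about this list. Without the 1-week testis 5 members were called toward testis, and in the fit over all infant arrays 7 toward testis and 2 toward ovary. PRAME, a germ cell antigen, read 5.74 and 7.43 in testis against 3.10 and 2.91 in ovary, at least an 11.9-fold difference (adjusted p = 0.0455), and lost its call under 6 of 17 alternatives. DND1 and NANOS3, RNA-binding proteins of the germ line, KIT, the receptor of germ cell survival, and the piRNA factors MAEL and TDRD1 were well above background in both gonads without passing the test. MAEL read 7.23 and 8.14 in testis and 9.63 and 8.24 in ovary, above its highest value of 3.51 in the other organs, and TDRD1 read 7.22 and 7.98 against 8.09 and 7.43, above 5.65. The other 3 do not mark germ cells here, since each was well above background on all 28 arrays of the other organs. There KIT ranged from 6.52 to 11.20, NANOS3 from 7.04 to 8.29 and DND1 from 6.11 to 9.55. The helicase DDX4, the usual marker of germ cells, lay between 3.19 and 3.76 on all 4 arrays, near the detection limit, so that this entry does not serve as a marker here. No entry was found under the symbol DAZL, which was not analysed here.

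Genes of gonocytes and spermatogonia gave no common direction. Of 20 members, DMRT1 was higher in testis and GFRA1, the receptor for the growth factor GDNF, was higher in ovary with 7.84 and 8.59 against 6.06 and 5.40 (adjusted p = 0.039). GFRA1 kept its call under 10 of 17 alternatives. Over all genes 2.26% were called toward testis and 1.93% toward ovary, so that 1 call in each direction is no result about the list. UCHL1, a ubiquitin hydrolase of spermatogonia and neurons, read 11.60 and 11.32 in testis and 12.39 and 12.71 in ovary (adjusted p = 0.0727). EGR4, ETV5 and LIN28A did not pass the test.

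The meiosis list had no call in limma between the gonads, with 2 of its 30 members toward testis and 1 toward ovary at an unadjusted p under 0.05. The comparison turned on which testis was used. Without the 1-week testis 14 members were called toward testis and the median log2 difference was 1.35, and without the 4-week testis none was called by limma, 2 members lay toward testis and 8 toward ovary at an unadjusted p under 0.05, and the median was -0.43, against 0.56 with both. From 1 to 4 weeks, 21 of the 30 members rose by at least 2-fold in testis and none fell, against 4.27% of all genes that rose by this size. SYCE3, a protein of the synaptonemal complex, read 4.59 at 1 week and 8.30 at 4 weeks, and HORMAD2, which monitors unpaired chromosome axes, 2.71 and 7.83. DMC1, the meiotic recombinase, read 3.59 and 7.34, and SPATA22 4.96 and 8.59. In the list of germ cell genes shared by both sexes, 12 of 29 rose by this size, among them TEX19, which read 8.17 and 12.38. In the ovaries all 5 genes lay below the 4-week testis, with SYCE3 at 3.82 and 4.38 and TEX19 at 7.89 and 8.17. DMC1 was not well above background in either ovary, and HORMAD2 was not placed by the reference table. SYCP3, another protein of the complex, was already high in ovary with 9.67 and 9.23, against 7.82 and 10.26 in testis. The change in testis rests on 1 array per age and was not tested.

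**Figure D4:**
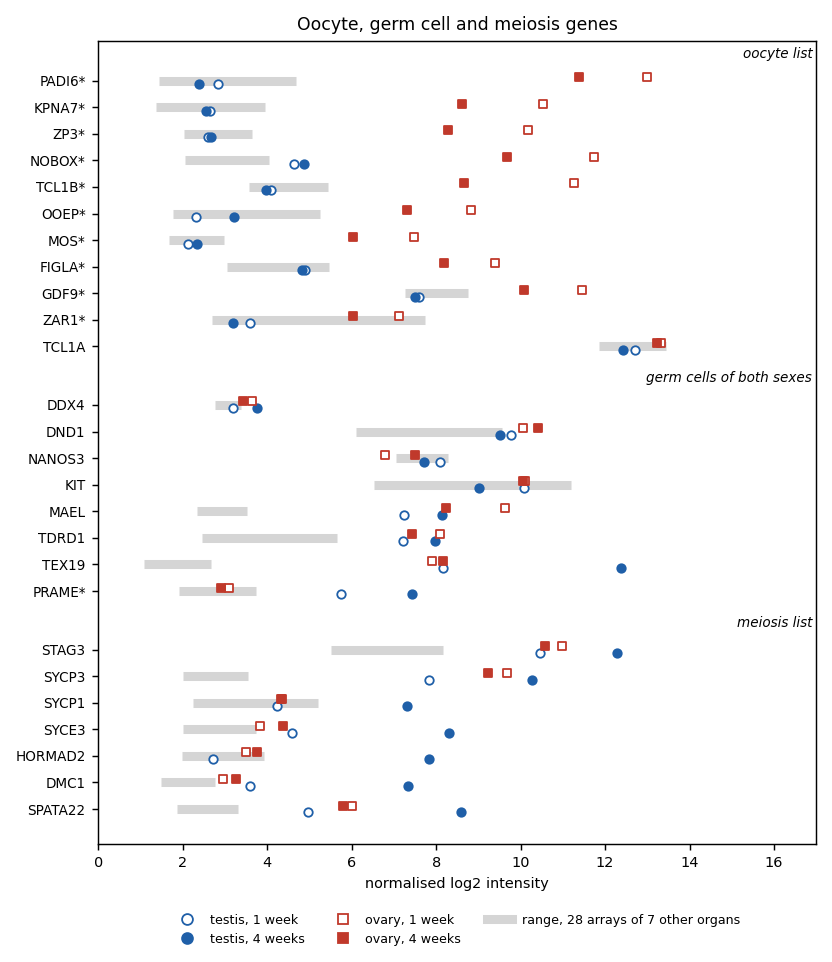
Normalised log2 intensity (x axis) of oocyte, shared germ cell and meiosis genes, with circles for testis, squares for ovary, open symbols at 1 week, filled symbols at 4 weeks, grey bars for the range of 28 arrays of 7 other organs and a star for a called gene. Oocyte genes from PADI6 to MOS stand apart in the ovaries, with the 1-week ovary to the right of the 4-week ovary, and meiosis genes such as SYCE3 and HORMAD2 stand apart in the 4-week testis alone.

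Pathways that join these cells were called for single members. In the hedgehog list of 10 members, the ligand DHH was the only call, and its receptor PTCH1 read 5.59 and 5.16 in testis and 4.97 and 4.99 in ovary (adjusted p = 0.369). Of 42 members of the TGF-beta, activin and BMP list, INHBB was higher in testis and FST, GDF9, ID2 and BMPR1B were higher in ovary. ID2, a target of BMP signals, read 7.78 and 6.70 against 10.07 and 10.62, an 8.60-fold difference (adjusted p = 0.0338), and BMPR1B, a type I receptor, differed by -1.58 ± 0.19 (adjusted p = 0.0277). WNT5B, a ligand, was the only call among 39 WNT and R-spondin genes, with a log2 difference of -1.52 ± 0.24 (adjusted p = 0.0436). A single call among 39 or 42 genes is near the share called over all genes, 1.93% toward ovary and 2.26% toward testis, and is no result about these lists. The single call among the 10 hedgehog genes is no result about that list either.

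Of 17 retinoid genes, 2 were higher in ovary, against 1.93% of all genes. The count was 0 with an offset of 50 and with the authors' own normalised values, and 5 in the fit over all infant arrays. RBP4, which carries retinol in plasma, read 5.35 and 4.42 in testis against 7.64 and 8.98 in ovary (adjusted p = 0.0463), and RARB, a retinoic acid receptor, 5.39 and 5.99 against 8.13 and 7.93 (adjusted p = 0.0259). Among 17 genes of the insulin and relaxin family, INSL3, IGF1 and IGF2R were higher in testis, against 2.26% of all genes. The count of this family toward testis was 3 with an offset of 50 and 0 with the authors' own normalised values. IGF1, the growth factor, read 6.94 and 7.02 in testis and 5.52 and 5.49 in ovary, and IGF2R, which clears IGF2, 10.88 and 10.82 against 9.62 and 9.46 (adjusted p = 0.028 and 0.038). Of the 13 genes found of the cell division list only TOP2A, a topoisomerase, was called, higher in testis by 1.58 ± 0.23. MKI67 was not well above background on any array. A single call is no result about that list, beside 2.26% of all genes called toward testis. Of the 17 alternatives, TOP2A kept its call under 8, RBP4 under 9, IGF1 and IGF2R under 10 each and RARB under 11. ESR1, the estrogen receptor listed with the rete and ducts, was at least 5.21-fold higher in ovary (adjusted p = 0.0154).

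Markers of other cell types were measured beside these results. Of 10 genes of surface epithelium and mesothelium, 3 were higher in ovary, against 1.93% of all genes, with a median log2 difference of -2.77. The count toward ovary was 0 with an offset of 50, without background correction and with the authors' own normalised values. It was 1 with age as a block or with quantile normalisation over the 4 gonad arrays, and 7 in the fit over all infant arrays. MSLN, the mesothelin of the ovarian surface, which the reference table did not place, read 6.92 and 7.98 in ovary and was not well above background in testis, at least a 24.2-fold difference (adjusted p = 0.0132). KRT19, a keratin, read 6.65 and 4.99 in testis and 9.23 and 9.37 in ovary (limma adjusted p = 0.0463). EPCAM, an epithelial adhesion molecule, read 7.39 and 5.70 against 9.83 and 10.17 (limma adjusted p = 0.0491). KRT19 kept its call under 9 of 17 alternatives, and EPCAM under 9 of the 16 that gave a value. CDH1, the epithelial cadherin, read 6.49 and 3.92 against 10.02 and 10.07 (adjusted p = 0.0523), and its second entry was called (adjusted p = 0.0396). The summed linear intensity of the 10 genes was 3420 in the 1-week testis, 1500 in the 4-week testis, 11600 in the 1-week ovary and 13700 in the 4-week ovary. From 1 to 4 weeks 5 of the 10 fell by at least 2-fold in testis, as did WNT4, IRX3 and EMX2. The part of epithelium in the values of these genes and of the other genes higher in ovary was not tested.

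Lists of endothelium, macrophages, erythroid cells, fat cells, stroma and smooth muscle had no call in either direction by limma, while 7 of their 51 members passed an unadjusted p under 0.05, as did 5485 of all 23722 genes. Of the 9 smooth muscle genes, 5 rose by at least 2-fold from the 1-week to the 4-week ovary, as in CNN1, a calponin, with 8.12 and 11.62. Their summed linear intensity was 14800 and 11000 in the testes and 6650 and 22300 in the ovaries. The hemoglobin gene HBB read between 12.81 and 14.35 on the 4 arrays.

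Some of the largest differences toward testis belonged to genes outside the lists. The RefSeq locus LOC100623656, which carries no gene name in the table, read 14.85 and 15.13 in testis and was not well above background in ovary, at least a 4630-fold difference (adjusted p = 0.000618). LOC100515765 was at least 1010-fold higher in testis. FBP2, the muscle form of fructose bisphosphatase, read 10.80 and 11.02 in testis and 2.89 and 2.68 in ovary, at least 256-fold, and SULT1C3, a sulfotransferase that was not placed, 11.11 and 11.45 against 3.07 and 3.58 (adjusted p = 0.0025). All probes of FBP2 and SULT1C3 are marked as cross-hybridising.

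On the ovary side, some of the largest differences also belonged to genes outside the oocyte list. CCL26, a chemokine, was at least 47.9-fold higher in ovary (adjusted p = 0.0126). ESRP1, a splicing factor of epithelial cells, read 10.07 and 8.88 in ovary and 4.95 and 2.71 in testis. DPPA5, an RNA-binding protein of pluripotent and germ cells, read 12.64 and 11.34 in ovary and 7.13 and 6.64 in testis, a 34.4-fold difference (adjusted p = 0.0172). In the other organs DPPA5 did not exceed 7.44.

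The called genes were also compared with the other organs. Of the 535 genes higher in testis, 186 were higher in both testes than in all 28 arrays of the other organs, which is 34.8% of them against 4.22% of all genes. Of the 457 genes higher in ovary, 138 were higher in both ovaries than in all of these arrays, 30.2% against 5.46%. The calls were made on the same gonad values. Shares above those of all genes therefore follow in part from the selection and are no separate support. STAR, INSL3, ZP3, KPNA7, MOS and the called entry of CYP17A1 were not well above background on any of the 28 arrays. The CYP17A1 entry without cross-hybridising probes was well above background on all 28, with values between 3.97 and 5.63. HSD11B2 reached 14.10, its highest value there, in another organ. Between males and females, 62 genes, 0.261% of all genes, were called in the other organs, and 3 of them were among the 535 genes higher in testis and 3 among the 457 higher in ovary. Of these, ANXA4, an annexin on an autosome, was lower in males of the other organs (log2 difference -2.95, adjusted p = 4.57e-06) and lower in testis than in ovary (log2 difference -3.49). MXRA5, which the table did not place, went in opposite directions, with -3.18 between testis and ovary and 0.57 between males and females elsewhere.

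Later samples of the same gonads were read beside the infant values. Testis was measured at 2 months, 4 months and 2 years, and ovary at 2 and 4 months, with 1 array each. Of the 535 genes higher in infant testis, 244 had both testes of 2 and 4 months above both ovaries of these ages, which is 45.6% against 28.2% of all genes. Of the 457 genes higher in infant ovary, 344 had both ovaries above both testes, 75.3% against 43.3%. STAR read 2.30 in the 2-month ovary and 9.31 in the 4-month ovary, and CYP17A1 3.57 and 9.89, against 10.12 and 10.13 for STAR and 10.99 and 11.08 for CYP17A1 in the testes of these ages. INSL3 read 10.71 and 13.93 in the ovaries. The 4-month ovary was thus far closer to the testes than the infant ovaries in these steroid cell genes. AMH stood at 7.38 and 7.24 in testis and at 10.67 and 10.91 in ovary, the reverse of the infant order. SYCE3 read 11.36 and 11.45 in testis, and 11.38 at 2 years, and stayed at 3.10 and 3.04 in ovary.

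**Figure D5:**
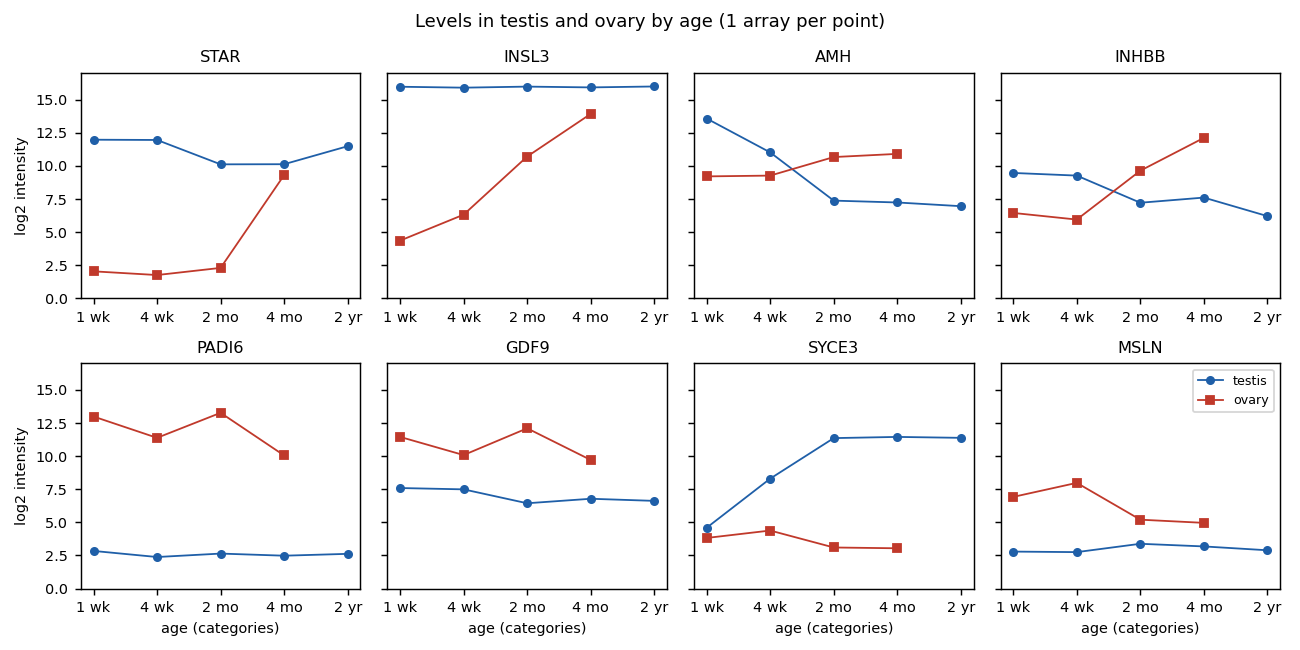
Normalised log2 intensity (y axis) of 8 genes in testis (blue circles) and ovary (red squares) against age in categories from 1 week to 2 years, with 1 array per point and no error. STAR and INSL3 are high in every testis, and among the ovaries they are highest at 4 months (9.31 and 13.93), AMH and INHBB change order after 4 weeks, and SYCE3 is high in testis from 4 weeks.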

How the data were processed

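The members and gene lists were chosen with earlier results of these data known. The authors deposited 1 scanner file per array (80 arrays, Agilent Feature Extraction 11.5.1.1), with median spot intensity and processed signal, not normalised between arrays, and a table of their own normalised log2 values. The median intensity was background corrected (normexp, offset 0), log2 transformed and quantile normalised over all arrays in limma 3.58.1 under R 4.3.3. Spots flagged by the scanner software were left out, and repeated spots and then probes were averaged per gene entry, which gave 23722 entries after 14 with missing values were dropped. Symbols came from the files (12814) or from RefSeq through accessions (3019); 7799 accessions did not match. Where a symbol had several entries, the one with the highest mean over the 4 arrays stood for it in a list.

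Testis and ovary were compared with lmFit and eBayes on the 4 arrays, 2-sided, with tissue as the only term. The sexes were compared in the 28 arrays of the other organs with the pair of tissue and age as a block. The labels do not say which of these pairs share animals. Where pairs share animals, the p-values of that comparison are too small. Where nothing says that samples are independent, p-values measure the spread between these samples. Named genes are up to 10 of each cell list by size of the difference, defining markers, up to 3 called genes per direction of each other list, and the 10 largest called differences per direction; genes placed on X or Y were left out, and in lists they were only counted. Genes named beyond this rule were chosen after their values were seen. In simulated data of this size, limma recovered 68% of genes changed by 2 and 92% of genes changed by 4 log2 units, with 7 false calls. Whether these values hold for the 4 measured arrays was not tested. The number of arrays limits the precision. Median intensities of the 4 arrays were 59 to 70, with negative controls at 19 to 23.5, and 87 to 117 saturated gene spots each. Each lay on a slide of its own, so that slide and gonad cannot be told apart within them. No probe sequences or coordinates were used here.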

Additional observations from a re-analysis of the deposited data

Results flagged for a closer look

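Among the named genes called higher in infant testis, 3 had the reverse order at 2 and 4 months, where both ovaries lay above both testes. The difference between the ages was not tested. INHBB had a log2 difference of 3.17 in the infants, and read 7.22 and 7.61 in the testes and 9.64 and 12.12 in the ovaries at 2 and 4 months. IGF1 had a log2 difference of 1.47, and read 5.96 and 6.01 against 6.48 and 7.65. IGF2R had a log2 difference of 1.31, and read 9.23 and 8.84 against 9.41 and 10.15. Such a reversal was seen in 64 of the 535 genes higher in infant testis, 12.0%, while 43.3% of all genes had both ovaries above both testes at these ages.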

How the results depend on the processing

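None of the 97 named genes reversed its direction with a call under the 17 alternatives. Of the 60 called, 9 entries kept their call under every alternative that gave a value, which leaves out the one without cross-hybridising probes for 4 of them (CYP17A1, FBP2, SULT1C3 and 1 of CYP11A1): STAR, both entries of CYP11A1, CYP17A1, LHCGR, LOC100623656, LOC100515765, FBP2 and SULT1C3. The others lost it mostly without the 1-week ovary (48 lost), with the authors' normalised values (37), with offset 50 (36) or without the 4-week ovary (33). Calls higher in testis and in ovary were 143 and 42 with offset 50, 231 and 91 without background correction, 2018 and 2053 over all infant arrays, 1125 and 1197 with slide added, and 146 and 70 with the authors' table, an alternative chosen after seeing the data like the one without cross-hybridising probes. The processed signal gave 821 in ovary, and median scaling 819 in testis, where it moved the median of all genes to 0.171. Leaving out 1 array gave 14 to 1106 calls in testis and 2 to 932 in ovary, with the lone array assumed to vary like the other gonad. Age as a block, which the labels do not make a pairing (deviations of same-age arrays correlated at -0.088), gave 185 and 135; no pair block in the other organs gave 28 genes in place of 62.

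Oocyte genes called were 0 with offset 50, 1 without background correction, 1 with the authors' table, 9 with age as a block and 23 over all infant arrays, and 2 to 16 with 1 array left out. Steroid genes called were 10 with offset 50, 8 without cross-hybridising probes, and 3 to 19 with 1 array left out. The cause was not tested.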
